A study of Mus musculus with 9 samples.

Results

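The scavenger receptors described here are 8 genes, *Mrc1*, *Colec12*, *Marco*, *Msr1*, *Cd163*, *Scarb1*, *Stab1* and *Stab2*, each chosen by its symbol and found as 1 row among the 13708 genes of the deposited table. Expression was measured by bulk RNA-seq in macrophages of the fetal mouse liver at E15.5, sorted as CD45+ cells with high F4/80 and low CD11b. The 5 Mrc1Cre Xpr1fl/fl samples and the 4 Xpr1fl/fl control samples share the homozygous floxed *Xpr1* alleles, *Xpr1* encoding the exporter of inorganic phosphate, and the Mrc1Cre samples carry in addition a heterozygous Cre allele at *Mrc1*. The Cre construct (an internal ribosomal entry site, codon-optimized Cre, a 2A peptide and eYFP) sits in exon 30 of *Mrc1*. *Mrc1* is also active in sinusoidal endothelial cells, so Cre is not restricted to macrophages. The sort took Tim4hi and Tim4lo macrophages together. The labels do not say whether a sample is 1 embryo or a pool, and p-values measure the spread between these samples only. In a bulk sample, fewer cells of a type and less RNA per cell cannot be told apart.

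Scavenger receptors are surface proteins that bind modified lipoproteins, microbial surfaces, glycoproteins and debris of dead cells, and carry them by endocytosis to lysosomes. In the liver they are known from Kupffer cells, the macrophages of the sinusoids, and from the sinusoidal endothelium, which together clear such ligands from the blood. In the fetal liver, macrophages also take up material left by maturing erythroblasts.

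Of the 8 receptor genes, *Mrc1*, *Colec12*, *Marco*, *Cd163*, *Stab1* and *Stab2* were lower in Mrc1Cre Xpr1fl/fl macrophages, *Msr1* was higher, and *Scarb1* did not pass the test. The values are normalized counts, tested with limma on log2(normalized count + 1) with Benjamini-Hochberg adjustment over 13594 genes. These genes reached 10 normalized counts in 4 or more samples, a filter that all 8 receptors passed. The 6 lower receptors compare with 21.6% of all genes tested that were lower at an adjusted p under 0.05, and the 1 higher receptor with 21.5% that were higher. In either direction, 7 of 8 receptors were called, against 43.1% of all genes. For 6 of the 8 receptors no Mrc1Cre Xpr1fl/fl sample overlapped any control, which held for 34.1% of all genes. The median log2 fold change of the 8 receptors was −1.36, and that of all genes tested was 0.0050. When each sample was scaled to its 75th percentile, the share of all genes called moved to 27.3% lower and 14.7% higher, and the calls of the receptors did not change.

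Column names of the table begin with 1 of 3 dates, whose meaning the sources used here do not state. Mrc1Cre Xpr1fl/fl sample 5 and Xpr1fl/fl samples 1 to 3 carry the earliest date, Xpr1fl/fl sample 4 the middle one, and Mrc1Cre Xpr1fl/fl samples 1 to 4 the latest. A fit with the date as a term therefore compares Mrc1Cre Xpr1fl/fl sample 5 with 3 controls. It called 8.78% of all genes, 4.54% lower and 4.24% higher. In that fit 4 receptors (*Mrc1*, *Colec12*, *Cd163* and *Stab1*) were lower and 0 were higher, and *Marco*, *Stab2* and *Msr1* lost their calls. The targeted gene *Xpr1* had normalized counts of 1074 to 1285 in Mrc1Cre Xpr1fl/fl samples and 1781 to 2239 in controls (log2 fold change −0.77, standard error (SE) 0.08, adjusted p = 4.13e-05), which follows the labels.

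**Figure D1:**
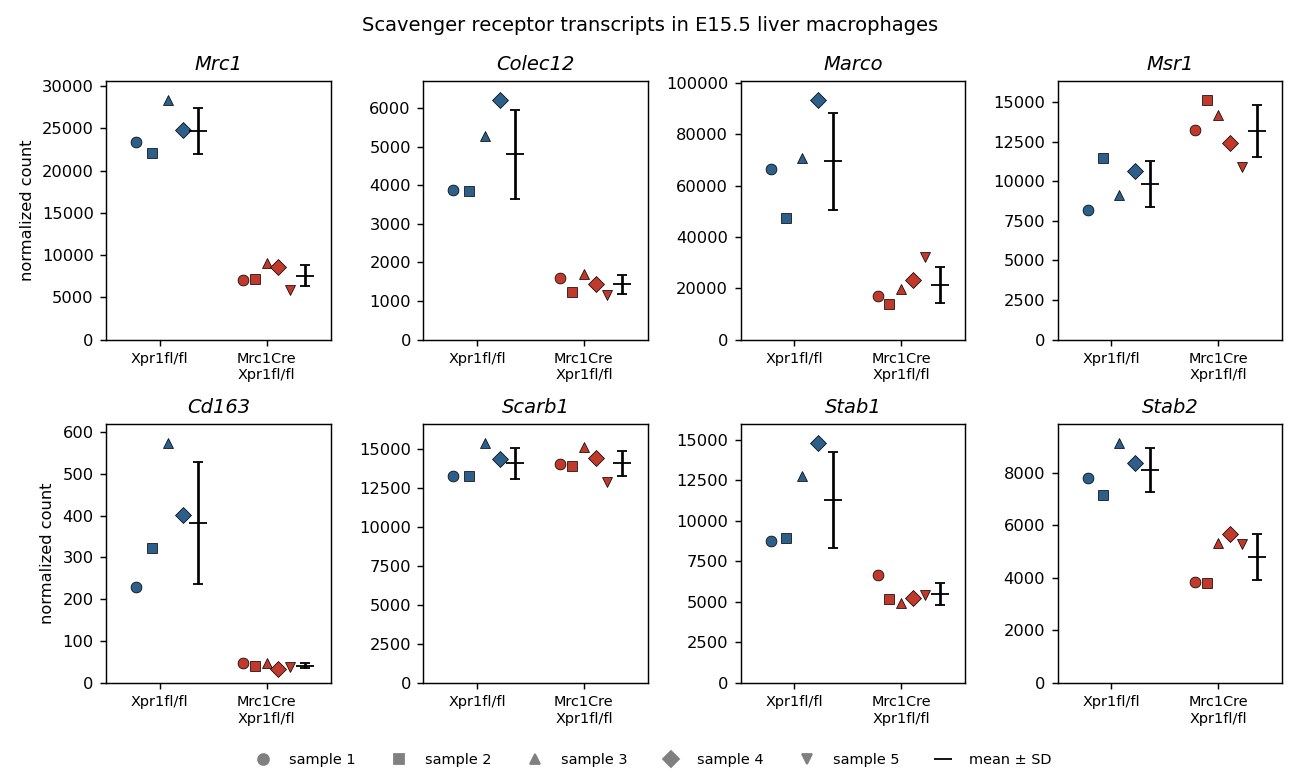
Normalized counts of the 8 receptors (vertical axes, from 0, a separate scale for each gene) in the 4 Xpr1fl/fl and 5 Mrc1Cre Xpr1fl/fl samples, with 1 point per sample and the mean ± SD beside each group. The groups are apart for *Mrc1*, *Colec12*, *Marco*, *Cd163*, *Stab1* and *Stab2*, and they overlap for *Msr1* and *Scarb1*.

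*Mrc1* (ENSMUSG00000026712) encodes CD206, a lectin that binds mannose-ended glycoproteins and collagen fragments and cycles between the surface and endosomes. The gene maps to chromosome 2 of GRCm39 (14234151 to 14336926, plus strand). Its last exon, exon 30 (14335733 to 14336926, 1194 bp), holds the last 251 coding bases, the stop codon and the 3′ untranslated region, and encodes the membrane-spanning segment and the cytoplasmic tail. The coding part is shown because the Cre construct was placed in this exon, at a position within it that is not given in the sources used here. The stop codon is in capitals.
*Mrc1* exon 30, coding part, chr2:14335733-14335986, plus strand, GRCm39: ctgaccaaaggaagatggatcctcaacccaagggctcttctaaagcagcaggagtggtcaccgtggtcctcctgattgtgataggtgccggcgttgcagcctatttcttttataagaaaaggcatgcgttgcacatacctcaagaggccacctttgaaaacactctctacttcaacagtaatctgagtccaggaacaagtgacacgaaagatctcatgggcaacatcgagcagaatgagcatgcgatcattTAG

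Normalized counts of *Mrc1* in Mrc1Cre Xpr1fl/fl samples 1 to 5 were 7064, 7223, 9095, 8566 and 5923. In Xpr1fl/fl samples 1 to 4 they were 23440.4, 22144, 28348 and 24841, so that the lowest control had 2.44 times the normalized count of the highest Mrc1Cre sample. The mean was 7574 ± 1266 (SD, n = 5) against 24693 ± 2674 (SD, n = 4), or 30.7% of the control mean. The log2 fold change was −1.72 (SE 0.12, adjusted p = 5.37e-06). In the fit with the date it was −2.05 (adjusted p = 0.000412), and sample 5, which shares its date with controls 1 to 3, had the lowest *Mrc1* of all samples at 24.0% of their mean. Every Mrc1Cre sample carries the construct in this gene and no control does, so that an effect of the construct on *Mrc1* transcripts and an effect of the loss of *Xpr1* cannot be told apart.

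*Colec12* (ENSMUSG00000036103) encodes a collagenous receptor of class A with a C-type lectin domain, which binds oxidized lipoprotein, microbes and galactose-type sugars. It maps to chromosome 18 of GRCm39 (9707593 to 9882644, plus strand). In the 5 Mrc1Cre Xpr1fl/fl samples its normalized counts were 1600.5, 1226, 1702, 1448 and 1157, and in the 4 controls 3877, 3851, 5261 and 6201. Every Mrc1Cre sample was thus below every control, with the highest values in controls 3 and 4. The mean was 1427 ± 234 (SD, n = 5) against 4797 ± 1144 (SD, n = 4), which is 29.7% of control. The log2 fold change was −1.73 (SE 0.16, adjusted p = 2.16e-05), and −1.89 in the fit with the date (adjusted p = 0.00123).

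*Marco* (ENSMUSG00000026390), another collagenous class A receptor, binds bacteria and inhaled or blood-borne particles and is a gene of Kupffer cells and other resident macrophages. It maps to chromosome 1 of GRCm39 (120402267 to 120432753, minus strand). Mrc1Cre Xpr1fl/fl samples 1 to 5 had 16926, 13965, 19851, 23351 and 31966 normalized counts, and Xpr1fl/fl samples 1 to 4 had 66312.5, 47461.5, 70758 and 93239. The groups did not overlap, but both varied widely: the coefficient of variation was 32.7% in Mrc1Cre samples and 27.1% in controls. The mean was 21212 ± 6946 (SD, n = 5) against 69443 ± 18806 (SD, n = 4), or 30.5% of control, with a log2 fold change of −1.73 (SE 0.23, adjusted p = 0.000189). Sample 5 stood highest among the Mrc1Cre samples, at 52.0% of the mean of the controls of its date. In the fit with the date the log2 fold change was −0.92 and did not pass the test (adjusted p = 0.0614). The summed normalized counts of 14 erythroid markers, which include the globin genes, moved with it: they were 105750 to 166433 in Mrc1Cre samples 1 to 4, 318776 in sample 5 and 417771 to 659831 in controls. Mrc1Cre sample 5 was also the highest of its genotype for summed endothelial (4132), hepatocyte (45218) and monocyte (17335) markers. It was not the highest for mesenchymal or macrophage markers. The part of any of these cells in the result for *Marco* was not tested.

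*Msr1* (ENSMUSG00000025044) encodes the founding class A receptor, which takes up acetylated and oxidized low-density lipoprotein. It maps to chromosome 8 of GRCm39 (40034726 to 40095714, minus strand). Its normalized counts were 13238, 15139.6, 14209, 12433 and 10929.6 in the Mrc1Cre Xpr1fl/fl samples and 8199, 11452, 9114 and 10631 in the controls. Sample 5 was below control 2, and the other 4 Mrc1Cre samples were above every control. The mean was 13189.7 ± 1622 (SD, n = 5) against 9849 ± 1466 (SD, n = 4), 134% of control, with a log2 fold change of 0.42 (SE 0.11, adjusted p = 0.00954). In the fit with the date it was 0.20 (adjusted p = 0.477).

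*Cd163* (ENSMUSG00000008845) encodes the receptor for complexes of haemoglobin and haptoglobin, a protein of macrophages that handle red cell material. It maps to chromosome 6 of GRCm39 (124281606 to 124307560, plus strand). Normalized counts were 48.3, 40.9, 46.2, 33.6 and 36.9 in Mrc1Cre Xpr1fl/fl samples, and 230.1, 322, 573 and 401.5 in controls. This was the largest difference among the 8 receptors: even the lowest control had 4.76 times the normalized count of the highest Mrc1Cre sample. The mean fell to 41.2 ± 6.2 (SD, n = 5) from 382 ± 145 (SD, n = 4), or 10.8% of control. The log2 fold change was −3.12 (SE 0.23, adjusted p = 8.34e-06), and −3.21 in the fit with the date (adjusted p = 0.00345). The controls were the more variable group, with a coefficient of variation of 38.1% against 15.0%, and control 3 was the highest. At these low counts the scale with a pseudocount understates the change.

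*Scarb1* (ENSMUSG00000037936) encodes SR-B1, a class B receptor that takes cholesteryl esters from high-density lipoprotein without taking in the particle. It maps to chromosome 5 of GRCm39 (125353547 to 125418176, minus strand). Its normalized counts were 14025, 13857, 15087, 14428 and 12891 in Mrc1Cre Xpr1fl/fl samples and 13269.6, 13260.2, 15335 and 14352 in controls. The groups overlapped fully, and the mean was 14058 ± 806 (SD, n = 5) against 14054 ± 996 (SD, n = 4). The log2 fold change was 0.00, with a 95% interval of −0.13 to 0.14 (adjusted p = 0.991), and −0.11 in the fit with the date (adjusted p = 0.524). It was the least variable receptor in both genotypes, with coefficients of variation of 5.74% and 7.09%.

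The stabilins are large receptors that are known from sinusoidal endothelium and from subsets of tissue macrophages. *Stab1* (ENSMUSG00000042286), which clears acetylated lipoprotein and the matrix protein SPARC, maps to chromosome 14 of GRCm39 (30860970 to 30890598, minus strand). It overlaps *Nt5dc2* on the opposite strand. The libraries came from a stranded kit, but the strand setting of the quantification is not given in the sources used here. Normalized counts of *Stab1* were 6664, 5166.5, 4907, 5244 and 5439 in the Mrc1Cre Xpr1fl/fl samples and 8746, 8939, 12746 and 14791 in the controls. Controls 3 and 4 were well above controls 1 and 2, and every Mrc1Cre sample was below all of them. The mean was 5484 ± 686.5 (SD, n = 5) against 11305.5 ± 2965 (SD, n = 4), 48.5% of control. The log2 fold change was −1.01 (SE 0.15, adjusted p = 0.000366), and −0.88 in the fit with the date (adjusted p = 0.0334).

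*Stab2* (ENSMUSG00000035459), the receptor that clears hyaluronan and heparin, maps to chromosome 10 of GRCm39 (86675054 to 86843889, minus strand). Its normalized counts were 3859, 3809, 5320.4, 5675 and 5301.5 in the Mrc1Cre Xpr1fl/fl samples, and 7825, 7167, 9129 and 8379.8 in the controls. Samples 1 and 2 were the lowest, and the highest Mrc1Cre sample was still below the lowest control. The mean was 4793 ± 888 (SD, n = 5) against 8125 ± 833 (SD, n = 4), or 59.0% of control. The log2 fold change was −0.78 (SE 0.13, adjusted p = 0.000667). It was −0.59 in the fit with the date and did not pass the test (adjusted p = 0.128).

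**Figure D2:**
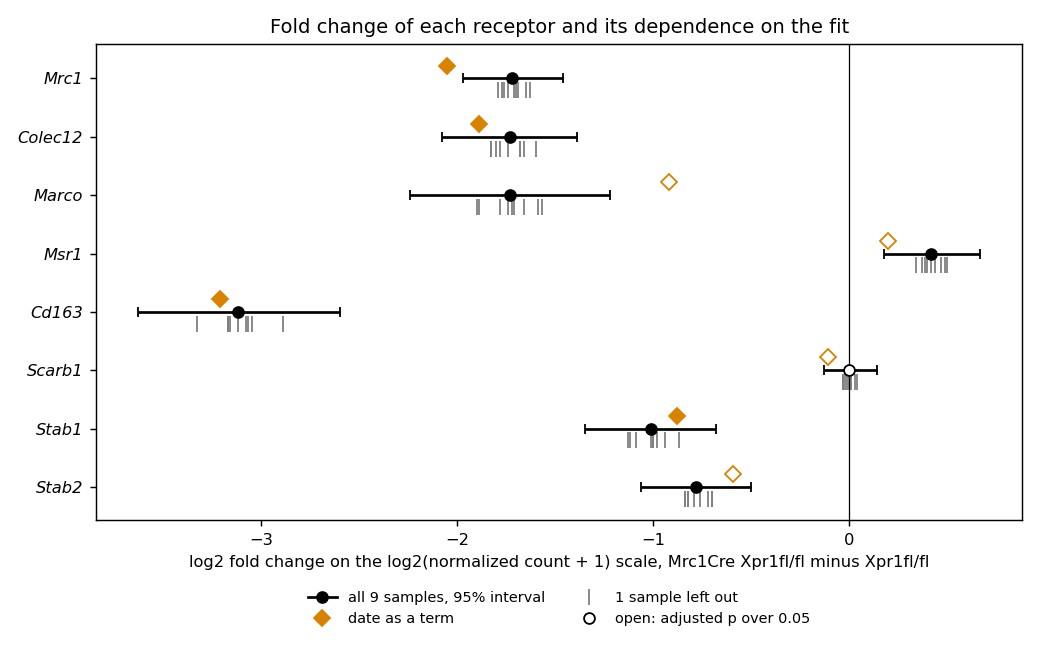
Log2 fold change of each receptor (horizontal axis, Mrc1Cre Xpr1fl/fl minus Xpr1fl/fl) over all 9 samples with its 95% interval (circles), in the fit with the date (diamonds) and with 1 sample left out (ticks); open symbols did not pass an adjusted p of 0.05. The diamonds of *Marco* (−0.92), *Stab2* (−0.59) and *Msr1* (0.20) are open and lie nearer to 0 than their circles, and that of *Mrc1* (−2.05) lies farther away.

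Promoters are shown for *Mrc1*, *Marco* and *Cd163*, which were all lower in Mrc1Cre Xpr1fl/fl macrophages, to set their sequences side by side. The RefSeq promoter table of GRCm38.p6 (250 bases before to 50 after the start of a gene) held 5 of the 8 receptors, *Mrc1*, *Cd163*, *Marco*, *Stab1* and *Stab2*. *Msr1*, *Scarb1* and *Colec12* were not among them. Both strands were searched for 3 motifs: GAGGAAG (the core of a site for PU.1, the lineage factor of macrophages), TGCTGAC (half-site letters of a MAF element) and GAAANNGAA (the core of an interferon-stimulated response element). Matches are in capitals, and CTTCCTC is the PU.1 core on the opposite strand.
*Mrc1* promoter, chr2:14229164-14229463, plus strand, GRCm38.p6: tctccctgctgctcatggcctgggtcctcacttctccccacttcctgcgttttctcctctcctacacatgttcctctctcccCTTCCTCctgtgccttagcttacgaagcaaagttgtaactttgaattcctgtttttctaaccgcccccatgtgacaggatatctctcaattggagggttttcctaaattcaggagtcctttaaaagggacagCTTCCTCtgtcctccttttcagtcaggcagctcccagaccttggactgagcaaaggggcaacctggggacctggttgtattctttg
*Marco* promoter, chr1:120504975-120505274, minus strand, GRCm38.p6: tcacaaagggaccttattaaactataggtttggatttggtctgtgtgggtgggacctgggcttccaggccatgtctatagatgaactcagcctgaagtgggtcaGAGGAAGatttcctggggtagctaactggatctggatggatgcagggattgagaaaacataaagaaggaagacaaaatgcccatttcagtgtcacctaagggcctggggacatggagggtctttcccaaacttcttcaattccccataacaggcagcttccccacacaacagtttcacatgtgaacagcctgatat
*Cd163* promoter, chr6:124304401-124304700, plus strand, GRCm38.p6: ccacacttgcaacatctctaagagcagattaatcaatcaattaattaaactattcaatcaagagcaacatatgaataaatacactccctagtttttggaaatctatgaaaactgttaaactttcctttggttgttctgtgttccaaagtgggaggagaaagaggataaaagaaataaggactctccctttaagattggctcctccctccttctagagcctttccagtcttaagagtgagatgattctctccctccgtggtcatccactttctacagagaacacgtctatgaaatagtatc
*Mrc1* held the PU.1 core at 2 places, beginning at positions −168 and −36 relative to the start, and *Marco* held it once, at −146. None of the motifs was found in the windows of *Cd163*, *Stab1* and *Stab2*. Of all 32851 promoters in the table, 13.6% held the PU.1 core, 4.67% the MAF half-site and 8.56% the ISRE core. These letter matches are a description of the windows and show nothing of binding.

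Pairs of these receptors were compared by their log2 ratio within each sample, with exact two-sided permutation tests adjusted over the 3 pairs compared. *Marco* and *Msr1* share a family, as do the stabilins, and *Mrc1* and *Cd163* do not. *Marco* against *Msr1*, both of class A, had a log2 ratio of 0.35, −0.12, 0.48, 0.91 and 1.55 in the Mrc1Cre Xpr1fl/fl samples and 3.02, 2.05, 2.96 and 3.13 in the controls. The mean ratio was lower by 2.15 on the log2 scale in Mrc1Cre samples, 0.64 ± 0.63 (SD, n = 5) against 2.79 ± 0.50 (SD, n = 4), with an exact p of 0.00794, the smallest that 126 assignments of the samples allow (adjusted 0.0119). Sample 5, at 1.55, was nearest to the controls, and the ratios were not tested with the date. *Mrc1* against *Cd163* had a mean log2 ratio of 7.48 ± 0.31 (SD, n = 5) in Mrc1Cre samples and 6.08 ± 0.43 (SD, n = 4) in controls, so that *Cd163* fell by more than *Mrc1* (difference 1.40, exact p = 0.00794, adjusted 0.0119). All 5 Mrc1Cre samples, at 7.16 to 7.95, were above the controls, at 5.63 to 6.66. Every Mrc1Cre sample carries the construct in *Mrc1*, so its effect on this ratio and that of the loss of *Xpr1* cannot be told apart. For *Stab2* against *Stab1* the ratios overlapped, −0.79 to 0.12 against −0.82 to −0.16, and a difference of 0.24 did not pass the test (exact p = 0.341, adjusted 0.341).

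Levels of different genes were set side by side as normalized counts per kb of the canonical transcript. In controls *Marco* led with 36074 ± 9769 per kb (SD, n = 4), rank 29 of 13698 genes with a length. *Msr1* (6916) and *Scarb1* (5535) followed, and their samples overlapped. *Mrc1* (4503) stood below both, then *Stab1* (1413), *Stab2* (794) and *Colec12* (598), of which the last 2 overlapped. *Cd163* was far below at 86.5 per kb, rank 9025. In Mrc1Cre Xpr1fl/fl samples the order of the means was the same, but *Marco* (11019 ± 3608, SD, n = 5) and *Msr1* (9262 ± 1139, SD, n = 5) now overlapped. *Mrc1* went from rank 369 to 1452, *Colec12* from 3198 to 7103 and *Cd163* to rank 12101, with 9.3 per kb. *Msr1* went from 238 to 176 and *Scarb1* from 293 to 299.

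**Figure D3:**
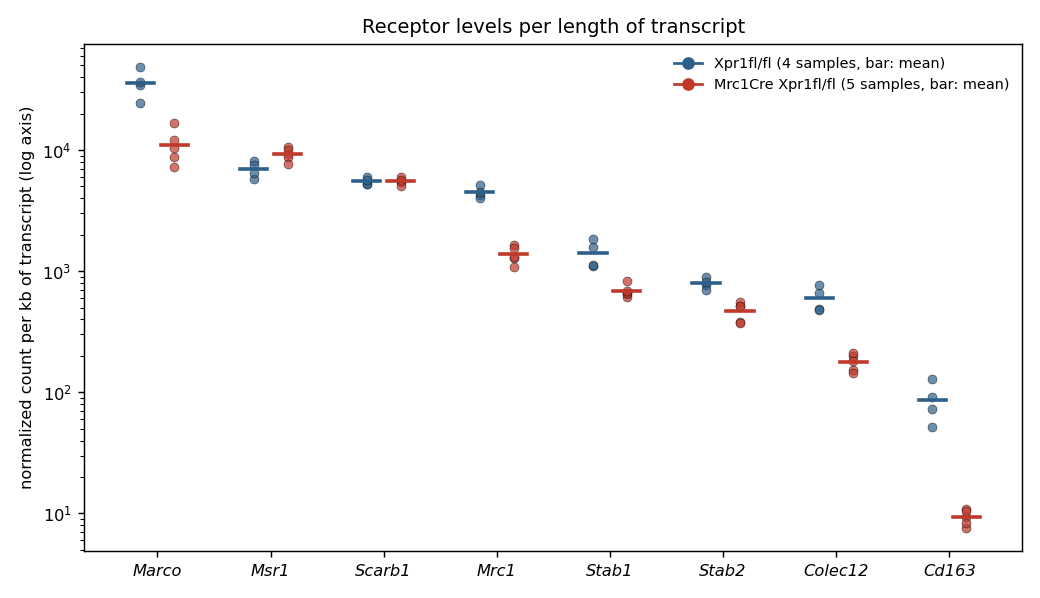
Normalized counts per kb of transcript (vertical log axis) of the 8 receptors in order of their control mean, with 1 point per sample and a bar for the mean of the 4 Xpr1fl/fl and the 5 Mrc1Cre Xpr1fl/fl samples. *Marco* at 36074 per kb is far above *Msr1* at 6916 in controls, and the points of these genes overlap in Mrc1Cre samples.

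Markers of macrophages and of other liver cells were examined beside the receptors, since *Stab1*, *Stab2*, *Mrc1* and *Colec12* are also genes of endothelium. The pan-macrophage markers *Adgre1* and *Csf1r* did not pass the test. *Adgre1* encodes F4/80, on which the cells were sorted, so its level is not independent of the sort. It had 46581 ± 1402 (SD, n = 5) against 46008 ± 4750 (SD, n = 4) normalized counts (limma adjusted p = 0.816). *Csf1r* had 84995 ± 6385 against 77102.5 ± 5259 (limma adjusted p = 0.155). Beside the marker lists stand the shares of all genes tested, 21.6% lower and 21.5% higher. Of 14 macrophage markers, 7 were lower and 1 was higher, and their sum was 298508 to 332576 in Mrc1Cre Xpr1fl/fl samples and 328658 to 408874 in controls. The lower ones included *Vsig4* (13.3 ± 4.6 against 485.5 ± 232, adjusted p = 6.21e-06), a complement receptor of Kupffer cells, and *Timd4* (8464 ± 835 against 15283 ± 1702, adjusted p = 4.23e-05), which encodes Tim4.

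Of 21 endothelial markers, 18 were lower and 0 higher, and their summed normalized count was 3425 to 4132 in Mrc1Cre Xpr1fl/fl samples against 5326 to 9214 in controls, with no overlap. Control 3 was the highest and none of the markers was at 0 in every sample. All 14 hepatocyte markers and all 14 erythroid markers were lower, at 53.1% and 30.8% of the control sum, and 8 of 11 mesenchymal markers were lower, at 24.2%. The hepatocyte sum includes *Trf*, its largest member, which was at 62.5% of control and highest in control 3. *Alb* was at 45.0% and highest in control 4. The monocyte list overlapped, 12048 to 17335 against 8668 to 31808, with 4 of 10 lower and 2 higher. The fit with the date compares 1 Mrc1Cre sample with 3 controls. Its median log2 fold changes were −1.11 for endothelial, −0.62 for hepatocyte, −1.12 for mesenchymal, −0.87 for erythroid and −0.65 for monocyte markers. For macrophage markers the median was −0.11, and for all genes tested 0.012. Of the macrophage markers named above, *Vsig4* was at −5.2 and *Timd4* at −0.88 in that fit, and *Adgre1* at 0.04 and *Csf1r* at −0.02. The part of these cells in the results for the receptors was not tested.

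**Figure D4:**
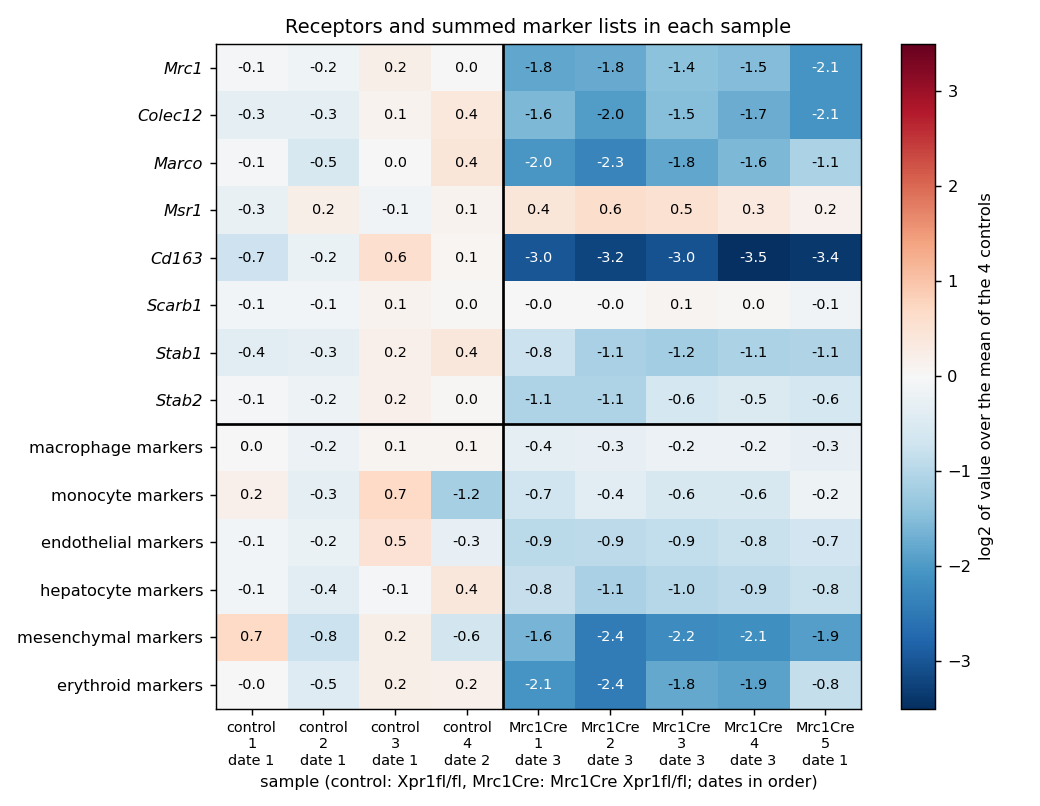
Log2 of each receptor's normalized count (upper 8 rows) and of the summed normalized counts of 6 marker lists (lower rows) over the mean of the 4 controls, by sample, with the order of the dates under each sample. *Cd163* is the darkest receptor row in the Mrc1Cre samples. Among these, sample 5 has the least reduced *Marco* and the least reduced erythroid sum, at 318776. Its endothelial, hepatocyte and monocyte sums are also the least reduced.

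Genes with the most similar profile were found by the root mean square difference of log2 values over the 9 samples, after centring each gene, among the 11392 tested genes whose mean reached 50 normalized counts. Genes picked in this way resemble the receptor in fold change, also in the fit with the date, by the choice itself. Their values are a description and add no evidence. Among the receptors themselves *Mrc1* and *Colec12* were the nearest pair (0.193), ahead of *Msr1* and *Scarb1* (0.273) and of *Stab1* and *Stab2* (0.332), and *Cd163* and *Msr1* were the farthest apart (1.79). Nearest to *Mrc1* among all genes were *Plppr3* (0.125), *Tanc1* (0.149) and *Tlr12* (0.163), with log2 fold changes of −1.67, −1.54 and −1.59. Nearest to *Marco* were *Tmod1* (0.133) and *Crip2* (0.142), at −1.67 and −1.63. *Cd163* had no gene so near. Its nearest were *Zfp37* (0.323), *Sgce* (0.369) and *Sema6a* (0.374), at −3.15, −2.62 and −2.70. Nearest to *Stab2* were *Foxo4* (0.0840), *Hic1* (0.0960) and *Ift70b* (0.0990), at −0.75, −0.83 and −0.75. The 3 genes nearest to *Stab2* did not pass the test in the fit with the date (adjusted p = 0.0896, 0.154 and 0.252).

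For this list and those below, the shares of all genes tested were 21.6% lower and 21.5% higher in the fit without the date. The shares in the fit with the date were smaller and are given above, where that fit is described. Of 19 other scavenger receptors and related secreted proteins, 14 had a row and were tested. Lower were 6 and higher 4, with a median log2 fold change of −0.19, and in the fit with the date 2 were lower and 2 higher. *Cd5l*, a secreted protein of resident macrophages, fell from 112152 ± 18865 (SD, n = 4) to 60784.5 ± 13608 (SD, n = 5) normalized counts (log2 fold change −0.90, adjusted p = 0.0017), a call that was lost in the fit with the date (−0.55, adjusted p = 0.25). *Cxcl16*, a membrane chemokine that binds oxidized lipoprotein, fell to 48.2% of control (−1.06, adjusted p = 4.96e-05), and *Scarf1*, a class F receptor, to 44.8% (−1.17, adjusted p = 0.00404). *Cxcl16* kept its call in the fit with the date (−0.93, adjusted p = 0.0237) and *Scarf1* did not (−0.69, adjusted p = 0.363). *Ager*, the receptor for advanced glycation end products, rose to 262 ± 58.5 (SD, n = 5) from 162 ± 19.9 (SD, n = 4) normalized counts (log2 fold change 0.67, adjusted p = 0.00642), and by 1.15 in the fit with the date (adjusted p = 0.0169). Of the 3 relatives of *Mrc1* (*Mrc2*, *Pla2r1* and *Ly75*), only *Ly75* passed the test (−0.87, adjusted p = 0.0472), a call that was lost in the fit with the date (−0.81, adjusted p = 0.314), and their means were 10.5 to 61.8 normalized counts.

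Among 11 other endocytic receptors, 9 were tested, 3 lower and 3 higher (median −0.10; in the fit with the date 2 lower and 2 higher). *Lyve1*, a hyaluronan receptor of sinusoidal and lymphatic endothelium and of some macrophages, fell to 35.5% of control (−1.46, adjusted p = 0.000449). *Sorl1*, a sorting receptor, rose from 1020.2 ± 163 (SD, n = 4) to 2739 ± 515 (SD, n = 5) normalized counts (1.42, adjusted p = 3.78e-05), and *Lrp8*, a receptor for apolipoprotein E and reelin, rose from 258 ± 18.9 to 505 ± 63.2 (0.96, adjusted p = 6.11e-05). These 3 kept their calls in the fit with the date (−1.57, 0.95 and 1.07). *Igf2r*, the receptor for mannose 6-phosphate, was lower at 71.6% of control (−0.50, adjusted p = 0.0397). It lost its call without Mrc1Cre Xpr1fl/fl sample 2, 4 or 5 or Xpr1fl/fl sample 2, 3 or 4, each left out in turn, with adjusted p up to 0.11. The call was also lost with untrended (limma adjusted p = 0.0773) and robust eBayes (limma adjusted p = 0.0543). *Lrp1*, a large receptor for many ligands, did not pass the test (adjusted p = 0.844), at 51188 ± 4006 (SD, n = 5) against 52143 ± 5714 (SD, n = 4).

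Ligands, sheddases and chaperones of the receptors numbered 13, of which 12 were tested, 5 lower and 1 higher (median −0.13; in the fit with the date 1 lower and 1 higher). *Sparc*, the ligand of stabilin-1, fell to 26.0% of control (−1.83, adjusted p = 0.00032), and *Hp*, which encodes the haptoglobin that *Cd163* protein binds in complex with haemoglobin, to 27.6% (−1.79, adjusted p = 0.0041). *Sparc* kept its call in the fit with the date (−1.71, adjusted p = 0.0126) and *Hp* did not (−1.05, adjusted p = 0.139). Summed mesenchymal markers were lower beside *Sparc*, at 714 to 1255 normalized counts in Mrc1Cre Xpr1fl/fl samples and 2302 to 6244 in controls. This sum was highest in Mrc1Cre sample 1 and control 1, and *Sparc* in Mrc1Cre sample 5 and control 3. Summed hepatocyte markers were also lower, at 35276 to 45218 against 59365 to 102128. Within controls they did not follow *Hp*: control 4 had the highest hepatocyte sum and the lowest *Hp*, at 279 normalized counts. *Sparc* and *Hp* both ranked the controls in the order 3, 1, 2 and 4. The summed monocyte markers had this order too (31808, 21963, 15787 and 8668), as did the summed endothelial markers (9214, 6056, 5513 and 5326). Among Mrc1Cre samples, *Sparc*, *Hp* and both of these sums were highest in sample 5. The part of any of these cells in these results was not tested. *Adam17*, a protease that sheds CD163 from the surface, rose from 6206 ± 378.5 (SD, n = 4) to 9194 ± 677 (SD, n = 5) normalized counts (0.57, adjusted p = 6.99e-05; 0.44 in the fit with the date). Its inhibitor *Timp3* fell to 44.1% of control (−1.33, adjusted p = 0.0131), a difference of −0.52 in the fit with the date (adjusted p = 0.632).

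Differences were small in the shared machinery of uptake, from −0.27 to 0.43 on the log2 scale. Of 20 genes of clathrin-coated pits and early endosomes, 6 were lower, 3 higher and 11 did not pass the test, with a median log2 fold change of −0.06. Over all genes tested, 21.6% were lower and 21.5% higher, 43.1% in either direction. The largest changes were those of *Eea1* (0.43), *Ap2b1* (0.38), *Epn1* (−0.27) and *Cltb* (−0.26), which encode an endosomal tether, an adaptor subunit, an accessory protein of the pit and a clathrin light chain. None of these 4 kept its call in the fit with the date, when 1 gene of the list was lower and 0 higher. Of 16 genes whose products are known to regulate scavenger receptor genes, 9 were higher and 3 lower (median 0.16), and in the fit with the date 1 was higher and 0 were lower. That 1 was *Nr1h3*, the oxysterol receptor LXRα, which rose from 7872 ± 391 (SD, n = 4) to 10161 ± 406 (SD, n = 5) normalized counts (0.37, adjusted p = 0.000219; 0.44 in the fit with the date, adjusted p = 0.0154). *Pparg* (0.43) and *Nr3c1* (0.38), which encodes the glucocorticoid receptor, were higher, and *Klf4* was lower (−0.56), a call that was lost without control 3 (−0.46, adjusted p = 0.0549). *Spi1*, which encodes PU.1, was at 117% of control (0.22, adjusted p = 0.0071).

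**Figure D5:**
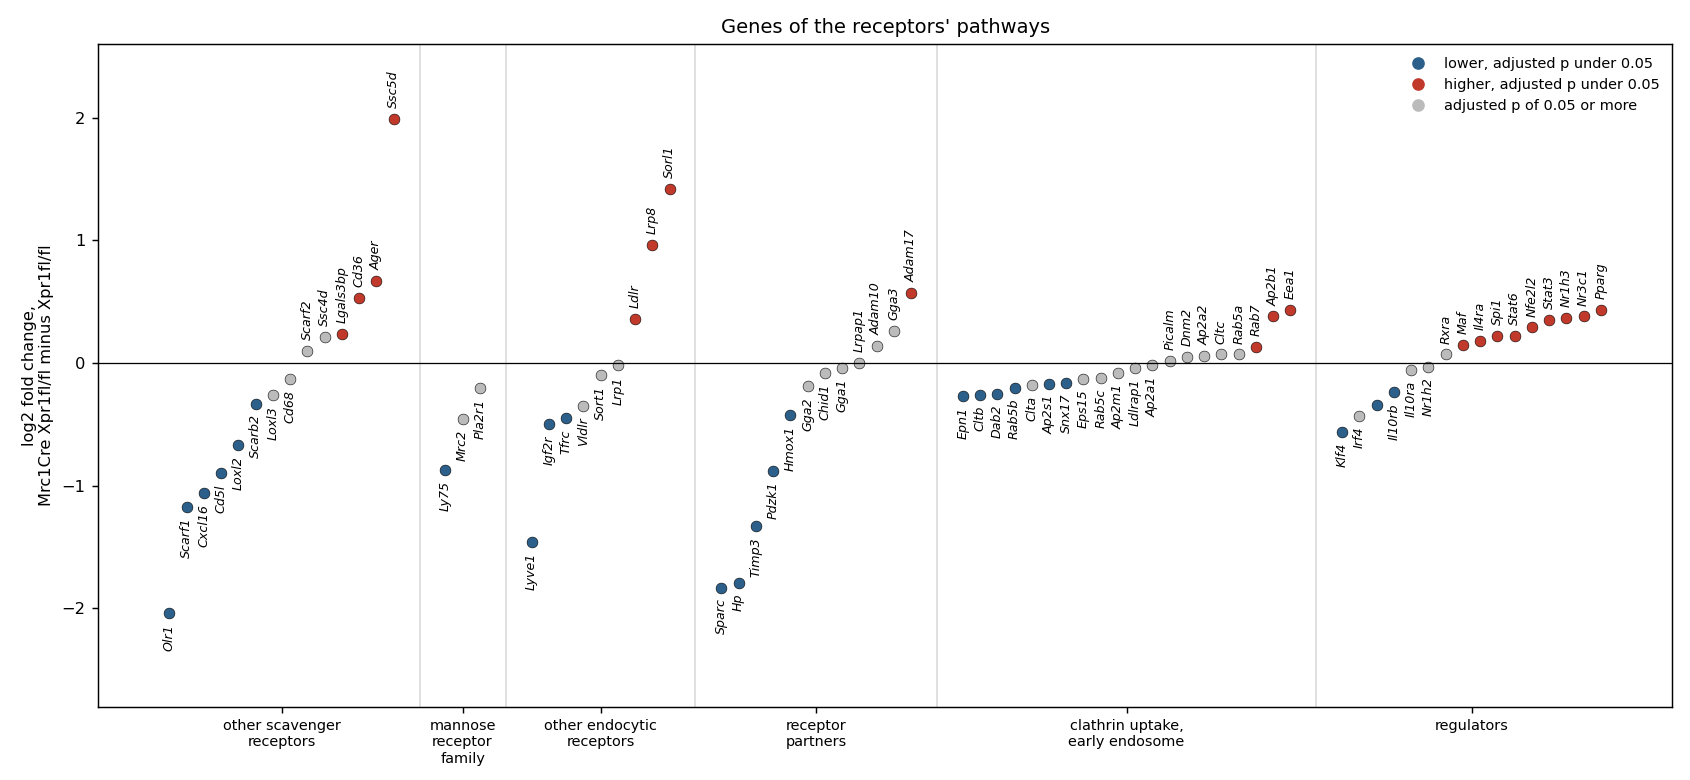
Log2 fold changes (vertical axis, Mrc1Cre Xpr1fl/fl minus Xpr1fl/fl) of the tested genes of 6 lists of related genes, in order of size within each list, with colour for the direction of genes at an adjusted p under 0.05 and 1 point without a name. The receptors and their partners range from −2.04 to 1.99, while the 20 uptake genes lie between −0.27 and 0.43. The ends of the wider range are *Olr1* and *Ssc5d*, genes of low counts, with control means of 83.0 and 6.1 normalized counts.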

How the data were processed

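RNA-seq was performed on 5 Mrc1Cre Xpr1fl/fl and 4 Xpr1fl/fl samples of sorted E15.5 liver macrophages. The authors quantified transcripts with salmon on GRCm39, imported them with tximport and normalized with DESeq2. Each deposited value is thus a normalized count, a signal that is never negative, which the authors divided by normalization factors. Totals (26942921 to 28309443 per sample) are set by this step, depth is unknown, and genes with a mean under 5.79 are not in the table. Tool versions are not given in the sources used here. Whole reads could not be recovered, so no count test was run. All columns were matched to samples by name.

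Symbols and models came from GENCODE mouse release 39 (GRCm39), and lengths are those of canonical transcripts. Genotypes were compared in R 4.3.3 with limma 3.58.1 (lmFit, then trended eBayes, on log2(normalized count + 1)) over genes that reached 10 normalized counts in 4 or more samples, with Benjamini-Hochberg adjustment over all genes tested and a threshold of 0.05. Fold changes on this scale understate changes of low genes. For log2 ratios of pairs, exact permutation tests (two-sided, scipy 1.17.1) were used. Scripts were tested on simulated data. Matplotlib 3.10.9 and Python 3.11.15 made the figures.

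Members and lists were chosen with earlier results of these data known. Named were the 8 receptors, *Xpr1*, the 4 largest changes per list among called genes whose mean reached 50 normalized counts, and the 3 genes most similar to *Mrc1*, *Cd163*, *Marco* and *Stab2*, of which some results are not reported here. Other genes (markers, *Lrp1*, *Ly75*, *Spi1* and those under other observations) were added after their values were seen. Alternatives were pseudocounts of 0.5 and 10, no filter or a minimum of 50, 75th percentile scaling, quantile normalization, untrended and robust eBayes, array weights, the replicate number as a block, the date as a term and each sample left out. Correlations between samples over all genes were 0.947 to 0.986, and none was treated as a repeat.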

Additional observations from a re-analysis of the deposited data

Results flagged for a closer look

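Within each genotype, the highest or lowest sample of every named gene was compared with the rest by Dixon's criterion. It stood apart in 8 of 82 groups, where chance gives about 1 in 20 (4.1), and in none of the 8 receptors. In Xpr1fl/fl sample 3, *Lyve1* had 1035.5 normalized counts against 518 to 544 in the other controls, and *Sema6a* had 210.2 against 82.9 to 98.9. The same sample had the highest endothelial sum, 9214. In Mrc1Cre Xpr1fl/fl sample 1, *Lyve1* had 341 against 188 to 221.5 in the others. Mrc1Cre Xpr1fl/fl sample 5, the only 1 of its genotype with the earliest date, stood apart for *Hp* (338.5 against 105.5 to 155), for *Eea1* (2075 against 2641 to 2731) and for *Epn1* (11033 against 9408 to 9574). In Xpr1fl/fl sample 2, *Cxcl16* had 757 against 904 to 932 and *Epn1* had 10730.4 against 12114.5 to 12355.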

How the results depend on the processing

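The calls of *Mrc1*, *Cd163*, *Stab1* and *Colec12* kept their direction and side of the threshold under all 20 alternatives, with log2 fold changes of −2.05 to −1.63, −3.33 to −2.87, −1.13 to −0.87 and −1.89 to −1.60. The date as a term was the only alternative that changed a receptor's call: *Marco* (−0.92, adjusted p = 0.0614), *Stab2* (−0.59, adjusted p = 0.128) and *Msr1* (0.20, adjusted p = 0.477) missed the threshold, 0 receptors were higher, and 1194 genes in place of 5865 passed. That fit compares 1 Mrc1Cre sample with 3 controls. *Scarb1*, at 0.00, turned negative with 75th percentile scaling (−0.08), quantile normalization (−0.10) and the date as a term (−0.11), and ranged from −0.03 to 0.04 with 1 sample left out, never past the threshold. The split of all calls was 3707 lower and 1999 higher with 75th percentile scaling, against 2939 and 2926. For the log2 ratios, 11 alternatives were run (the pseudocounts and each sample left out, not the date), in which the differences of *Marco* against *Msr1* (−2.40 to −1.97) and *Mrc1* against *Cd163* (1.16 to 1.59) kept their calls. Of 640 values for 32 other named genes, 616 kept their call, 15 lost it with the date as a term and 9 otherwise.

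The titles number the samples, and the replicate number as a block leaves out Mrc1Cre sample 5 in effect. Same-numbered samples did not deviate together (correlations −0.033, 0.147, −0.011 and −0.031), and 1 of 4 numbers matched best with itself, so the samples share only a number. With the block, 6226 genes passed and no receptor changed its call (*Mrc1* −1.63, *Marco* −1.89). Without known depth, counting error cannot be given, which bears most on *Cd163*.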

Other observations

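Some relatives of the receptors lay outside the rule for named genes, and their choice followed a look at their values. *Olr1*, which encodes the oxidized lipoprotein receptor LOX-1, was at 20.1 ± 7.5 (SD, n = 5) normalized counts in Mrc1Cre Xpr1fl/fl samples and 83.0 ± 18.5 (SD, n = 4) in controls (log2 fold change −2.04, adjusted p = 0.000264), and at −1.52 in the fit with the date (adjusted p = 0.0531). *Ssc5d*, a soluble scavenger protein, was low in both genotypes but rose, 26.1 ± 15.4 against 6.1 ± 5.1 (1.99, adjusted p = 0.0093), with overlapping samples. The class B receptors differed: *Cd36*, a receptor for fatty acids and oxidized lipoprotein, rose to 144% of control (0.53, adjusted p = 0.000229), and *Scarb2*, a lysosomal membrane protein, fell to 79.7% (−0.33, adjusted p = 0.0043), while *Scarb1* did not pass the test. In the fit with the date *Scarb2* kept its call (−0.46, adjusted p = 0.0331) and *Cd36* did not (0.38, adjusted p = 0.073). *Hmox1*, which encodes the enzyme that degrades the haem taken up through CD163, was at 74.3% of control (−0.42, adjusted p = 0.0359), and at −0.21 in the fit with the date (adjusted p = 0.645).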
